A study of Mus musculus with 18 samples.

Results

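The 7 genes Akr1c6, Akr1c12, Akr1c13, Akr1c14, Akr1c18, Akr1c19 and Akr1c20 were taken by name from the 18193 genes measured in the series. They encode aldo-keto reductases of the 1C subfamily, and each of the 7 had a probe set of its own. Akr1c20 had 2, which made 8 probe sets, and 1 further probe set carried the symbols of both Akr1c12 and Akr1c13. RNA came from primary hepatocytes of male C57BL/6N mice aged 8 to 12 weeks, isolated from 1 animal or a pool of up to 3 and kept on collagen I. Controls and stimulated dishes share the same handling: attachment for 4 h, 24 h in serum-free medium with 100 nM dexamethasone, and 4 h in medium without it before stimulation. By those hours the control at -5 h was taken before the last of these steps. The groups were 1 control array at -5 h, 5 control arrays at 0, 4, 8, 12 and 24 h left unstimulated, 4 arrays with 40 ng/ml rhIL-6 at 1, 2, 3 and 4 h, and 8 arrays at 5, 6, 7, 8, 9, 10, 12 and 24 h that also received 40 ng/ml rmHGF from 4 h on. Each stimulus and hour was measured on 1 array, so hours took the place of replicates, and nothing in the labels ties dishes to different animals. The p-values given here reflect the variation among these dishes and hours, which may be technical. None of the 18 arrays had HGF alone or IL-6 alone past 4 h, so HGF and longer IL-6 exposure cannot be told apart.

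Aldo-keto reductases reduce carbonyl groups to alcohols with NADPH or NADH, or run the reaction backwards. The 1C enzymes act on steroid hormones, bile acid precursors, prostaglandins and reactive aldehydes, and in liver they take part in clearing steroids and foreign compounds. Akr1c14 encodes a 3-alpha-hydroxysteroid dehydrogenase and Akr1c6 the liver form of a 17-beta-hydroxysteroid dehydrogenase. Akr1c18 encodes the 20-alpha-hydroxysteroid dehydrogenase that inactivates progesterone in the ovary. The products of Akr1c12, Akr1c13, Akr1c19 and Akr1c20 oxidise or reduce a range of steroid and non-steroid substrates. In the RefSeq gene order of mouse chromosome 13 (assembly GRCm38.p6) the 7 genes lie in a single cluster, from Akr1c14 through Akr1c18, Akr1c13, Akr1c19, Akr1c12 and Akr1c6 to Akr1c20, followed by Akr1c21 and Akr1e1.

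Values are log2 signals as the authors deposited them, and levels of different probe sets are not set against each other. Array medians lay between 5.47 and 5.57, and arrays correlated with the remaining 17 at a mean r between 0.985 and 0.994. The lowest were the 24 h arrays of control and of IL-6 plus HGF, both at 0.985, and the 10 h array of IL-6 plus HGF at 0.987. The hepatocyte markers Alb (mean 14.83), Ttr (14.26) and Apoa1 (14.27) were near the top of the scale, while Pck1 was dim at 4.36. Malat1, a nuclear long non-coding RNA picked out once its values were known, stood at 11.52 in control at 0 h and at 9.35 to 9.81 in control at 4 to 24 h. It lay between 11.24 and 11.65 with IL-6 alone and between 9.16 and 12.68 with IL-6 plus HGF, highest at 10 h. This range is set beside the Akr1c results it moves with. A difference here is in log2 units, and a fold is 2 raised to it.

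**Figure D1:**
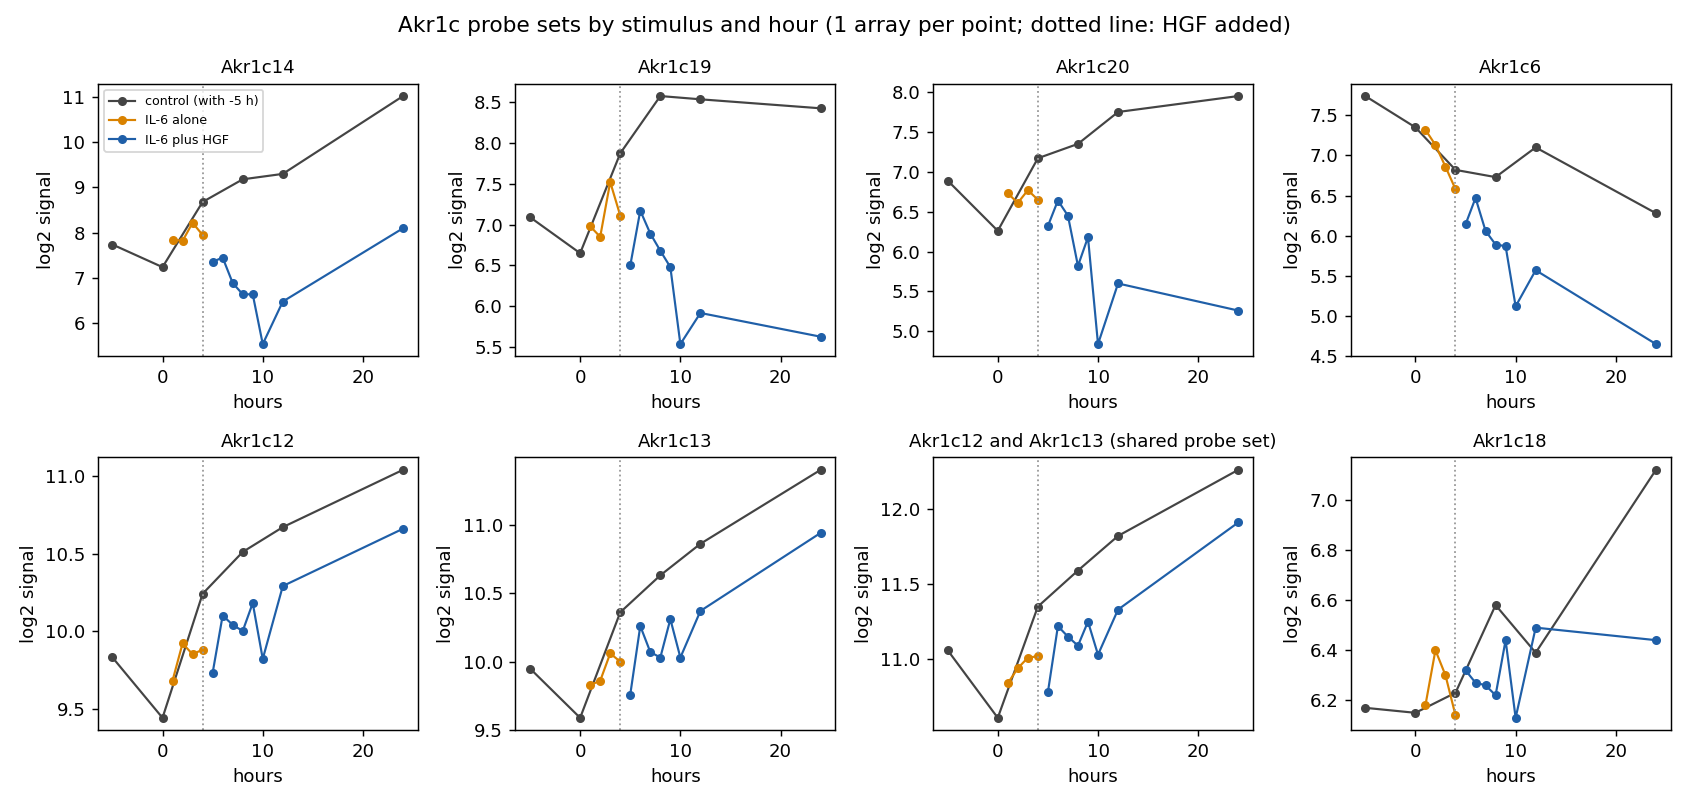
Log2 signal (vertical, a scale of its own in each panel) against hours (horizontal) for 7 Akr1c genes and the probe set shared by Akr1c12 and Akr1c13, with 1 array per point and a dotted line where HGF was added at 4 h. In control, Akr1c14 climbed from 7.24 at 0 h to 11.02 at 24 h, while with IL-6 plus HGF it lay between 5.54 and 8.10.

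In unstimulated cells, 6 of the 7 genes were higher at each of 8, 12 and 24 h than at both 0 and 4 h, a pattern seen in 15.5% of all genes. Akr1c6 was not among them. It was lowest at 24 h (6.28) but read 7.10 at 12 h, above 6.82 at 4 h. A slope was fitted by limma on log2 of the hours plus 1, over the 5 controls from 0 h on, so that it reads as log2 units per doubling of that time. It was positive and past an adjusted p of 0.05 in 5 of the 7 genes, Akr1c12, Akr1c13, Akr1c14, Akr1c19 and Akr1c20, against 2.14% of all genes called with a rise, 1.47% with a fall and 3.61% in either direction. The median slope of the 7 was 0.37, against 0.00 over all genes.

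Akr1c14 rose most in control. Its signal was 7.24 at 0 h, 8.68 at 4 h, 9.18 at 8 h, 9.30 at 12 h and 11.02 at 24 h, each higher than the one before. The difference between 24 and 0 h was 3.78, or 13.7-fold, and the slope was 0.74 ± 0.09 (SE; adjusted p = 0.0198, limma). Akr1c19 read 6.65, 7.87, 8.57, 8.53 and 8.42 at the same hours, with its highest value at 8 h (slope 0.43 ± 0.07; adjusted p = 0.0328). Akr1c20 read 6.26, 7.17, 7.35, 7.75 and 7.95 (slope 0.37 ± 0.03; adjusted p = 0.00878). Its second probe set was dim, with a mean at the 19.2th percentile of the array, and spanned only 3.49 to 4.02 in these controls (adjusted p = 0.117 over all probe sets).

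Akr1c12 read 9.44, 10.24, 10.51, 10.67 and 11.04 in control from 0 to 24 h (slope 0.34 ± 0.03; adjusted p = 0.00811). Akr1c13 read 9.59, 10.36, 10.63, 10.86 and 11.40 (slope 0.37 ± 0.03; adjusted p = 0.00986). The probe set common to both went from 10.61 to 12.26 with a slope of 0.35, called over all probe sets (adjusted p = 0.0133). These near-identical courses come from close paralogs, and a probe set of either gene may also bind the transcript of the other. Akr1c18 stayed between 6.15 and 6.58 until 12 h and reached 7.12 at 24 h, with a slope that did not pass (0.18 ± 0.06; adjusted p = 0.136). Akr1c6 read 7.35, 6.82, 6.73, 7.10 and 6.28, and its slope of -0.18 ± 0.06 did not pass either (adjusted p = 0.141).

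The control calls rest on few arrays. Without the control at 0 h only Akr1c13 was called (1 of 7), and Akr1c19 had a slope of 0.21 (adjusted p = 0.449, limma). Without that at 4 h 2 of 7 were called, and without that at 8 h 3 of 7. How many of all genes were called in these settings is not given here. From 4 to 24 h in control Akr1c14 went from 8.68 to 11.02, Akr1c13 from 10.36 to 11.40 and Akr1c12 from 10.24 to 11.04. Akr1c20 went from 7.17 to 7.95, Akr1c18 from 6.23 to 7.12 and Akr1c19 from 7.87 to 8.42, with its highest value at 8 h. Akr1c6 went from 6.82 to 6.28. Malat1 was 11.52 on the 0 h array, where the rising members were lowest, and 9.35 to 9.81 on the later controls. The part of Malat1 in the rise was not tested.

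All 7 members read higher in the control at -5 h than in that at 0 h. Between -5 and 0 h the signal dropped by 0.63 for Akr1c20, 0.50 for Akr1c14, 0.44 for Akr1c19 and 0.39 each for Akr1c6 and Akr1c12, on 1 array each. Akr1c13 dropped by 0.36 and Akr1c18 by 0.02. Akr1c6 was at its highest of all 18 arrays at -5 h, at 7.74. Set against the 5 later controls, the -5 h array was higher by 0.89 for Akr1c6 and lower for the other 6 members. A single array at -5 h gives no spread of its own.

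The upstream sequences of the co-rising pair are shown because they relate these paralogs to each other and to Akr1c19. RefSeq promoter windows (GRCm38.p6) were found for 6 of the 7 genes, and the 250 bases before the annotated start of 4 of them are printed 5′ to 3′ on the strand of the gene. The windows are chr13:4190937-4191186 on the plus strand for Akr1c13, chr13:4279400-4279649 on the minus strand for Akr1c12, chr13:4233490-4233739 on the plus strand for Akr1c19 and chr13:4059341-4059590 on the plus strand for Akr1c14. Capitals mark each match of the element TAANCATTAG. It was chosen on these sequences, as the 10-base pattern with 1 free inner base that recurs most often upstream of Akr1c13 and then of the other members. The overlapping pattern TTAANCATTA tied with it.
Akr1c13: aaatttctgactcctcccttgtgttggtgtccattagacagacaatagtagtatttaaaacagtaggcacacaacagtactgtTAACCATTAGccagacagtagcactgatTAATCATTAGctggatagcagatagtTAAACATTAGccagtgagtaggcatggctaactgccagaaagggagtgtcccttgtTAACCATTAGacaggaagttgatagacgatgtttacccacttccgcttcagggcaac
Akr1c12: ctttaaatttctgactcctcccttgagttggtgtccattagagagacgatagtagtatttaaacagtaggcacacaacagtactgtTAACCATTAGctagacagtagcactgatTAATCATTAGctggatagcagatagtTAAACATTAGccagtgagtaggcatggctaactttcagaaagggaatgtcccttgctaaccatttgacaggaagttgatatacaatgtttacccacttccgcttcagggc
Akr1c19: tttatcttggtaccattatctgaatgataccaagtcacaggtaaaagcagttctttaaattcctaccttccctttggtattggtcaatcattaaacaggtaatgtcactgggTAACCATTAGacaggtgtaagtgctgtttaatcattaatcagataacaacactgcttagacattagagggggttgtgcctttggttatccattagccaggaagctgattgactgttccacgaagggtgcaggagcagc
Akr1c14: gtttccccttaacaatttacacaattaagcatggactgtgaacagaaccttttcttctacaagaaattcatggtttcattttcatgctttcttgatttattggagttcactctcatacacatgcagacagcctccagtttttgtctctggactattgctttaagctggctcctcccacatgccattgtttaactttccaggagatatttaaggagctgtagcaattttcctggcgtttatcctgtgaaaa
In a global alignment the Akr1c12 and Akr1c13 windows were identical at 235 of 254 columns (92.5%). Akr1c19 shared 59.0% with Akr1c13 and 56.9% with Akr1c12, while the other pairs of windows shared 43.9% to 52.1%. The element, searched on both strands, occurred 4 times upstream of Akr1c13, 3 times upstream of Akr1c12 and 1 time upstream of Akr1c19, and had no match upstream of Akr1c14, Akr1c6 or Akr1c18. Of 32851 promoter windows of the same length 42 (0.128%) held it at least 1 time, 3 held it at least 2 times, and 2 held it at least 3 times, those of Akr1c13 and Akr1c12. Having been chosen for its repeats here, the element supports nothing by its count.

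**Figure D2:**
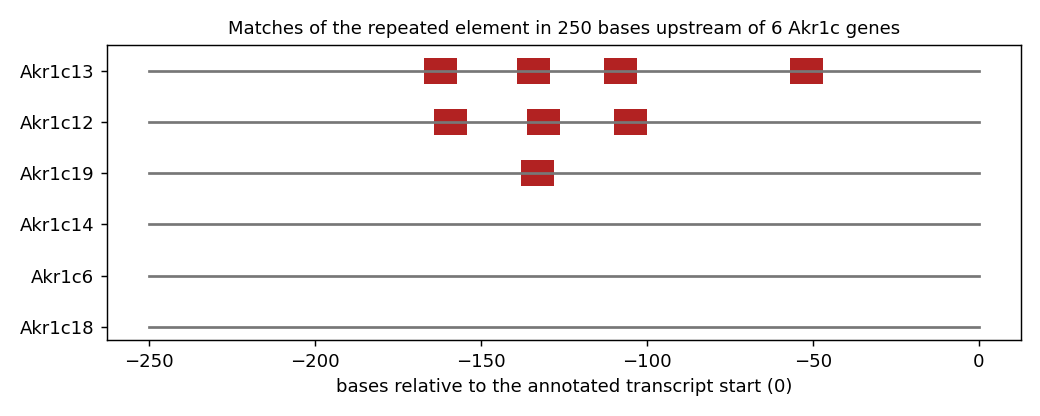
Matches of the repeated element (marks) in the 250 bases before the annotated transcript start (horizontal axis, in bases) of 6 Akr1c genes. Akr1c13 holds 4 matches, Akr1c12 3, Akr1c19 1 and the other 3 genes none.

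A further 5 motifs of liver and cytokine regulators were searched in the same windows on both strands. The STAT pattern TTCNNNGAA matched 1 time, upstream of Akr1c19, and is in 7.02% of all windows. A C/EBP pattern, TTNNGNAAT, matched 1 time, upstream of Akr1c18 (10.2% of windows). The AP-1 pattern TGANTCA (6.75%), the antioxidant response element core TGACNNNGC (10.2%) and the HNF1 half-site GTTAAT (6.43%) had 0 matches in the 6 windows. These are matches of letters in a short window and say nothing on binding.

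IL-6 alone was set against the controls at 0 and 4 h. The fit also held the later controls and the IL-6 plus HGF arrays, and left 13 residual degrees of freedom. Its standard errors and intervals therefore include the spread of those groups over their hours. None of the 7 genes was called (0 of 7 in limma, against 0.0220% of all genes). An unadjusted p under 0.05 in limma was found for 0 members and for 656 of all 18193 genes. Akr1c14 read 7.85, 7.82, 8.22 and 7.95 at 1, 2, 3 and 4 h, inside the span of its controls at 0 h (7.24) and 4 h (8.68), and its difference was 0.00 ± 0.58 (SE; 95% interval -1.22 to 1.22). Akr1c19 read 6.98, 6.85, 7.52 and 7.11 (difference -0.14; -0.98 to 0.70) and Akr1c20 6.73, 6.61, 6.77 and 6.65 (difference -0.02; -0.85 to 0.80). The intervals are wide. For Akr1c14 the SD was 0.18 within IL-6 alone and 1.02 in the controls at 0 and 4 h. It was 1.03 in the later controls and 0.77 with IL-6 plus HGF. The controls alone lay 1.44 apart between 0 and 4 h for Akr1c14, 1.22 for Akr1c19 and 0.90 for Akr1c20. Akr1c6 went down from 7.32 at 1 h to 7.13, 6.86 and 6.58, next to controls of 7.35 and 6.82 (difference -0.11; -0.92 to 0.70).

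At 4 h both conditions were measured, on 1 array each. There the IL-6 array was lower than control for Akr1c19 by 0.76, Akr1c14 by 0.74, Akr1c20 by 0.52, Akr1c12 and Akr1c13 by 0.36 each, Akr1c6 by 0.24 and Akr1c18 by 0.08. Single arrays allow no test. Without the control at 4 h the differences of IL-6 from the 0 h control alone were positive for Akr1c14 (0.72), Akr1c19 (0.47), Akr1c20 (0.43), Akr1c12 (0.39) and Akr1c13 (0.34), so the direction in these hours changed with the control used. Malat1 was 11.65 on the IL-6 array and 9.62 on the control array at 4 h; its part in the 4 h differences was not tested.

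The combined stimulus and control share the hours 8, 12 and 24 h, which were compared pair by pair with the hour as a block. All 7 genes were lower on average, 6 of them in each of the 3 pairs (24.6% of all genes were). In limma 6 of the 7 were called lower, against 6.46% of all genes called lower and 9.00% called in either direction. The median difference of the 7 was -1.33, or 2.51-fold, against 0.01 over all genes. Akr1c14, Akr1c19 and Akr1c20 were lower by at least 1 log2 in each of the 3 pairs, which 0.352% of genes were. In cultures, fewer cells that express a gene and less of its RNA per cell cannot be told apart.

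Akr1c14, the 3-alpha-hydroxysteroid dehydrogenase, was 6.77-fold lower. It read 6.64, 6.48 and 8.10 at 8, 12 and 24 h, against 9.18, 9.30 and 11.02 in control. The pair differences were -2.54, -2.82 and -2.92, with a mean of -2.76 ± 0.09 (SE; adjusted p = 0.000523, limma). Control and stimulated arrays at these hours did not overlap. The gap held while the level itself rose by 1.62 between 12 and 24 h in the stimulated cells.

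Akr1c19 was 5.38-fold lower, at 6.68, 5.92 and 5.63 against 8.57, 8.53 and 8.42 (difference -2.43 ± 0.17, SE; adjusted p = 0.00168, limma). Its pair differences were -1.89, -2.61 and -2.78, widest at 24 h. Akr1c20 was 4.37-fold lower, at 5.82, 5.60 and 5.26 against 7.35, 7.75 and 7.95 (-2.13 ± 0.20; adjusted p = 0.0033). Its pair differences were -1.54, -2.15 and -2.70. On its second, dim probe set the difference was -0.16 (adjusted p = 0.628 over all probe sets, limma). Its pair differences were 0.34 at 8 h, -0.29 at 12 h and -0.51 at 24 h. The 2 probe sets of Akr1c20 thus disagree in size, and at 8 h in direction. The counts of genes lower in each pair hold Akr1c20 by its brighter probe set only.

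Akr1c6, the 17-beta-hydroxysteroid dehydrogenase, was 2.51-fold lower, at 5.89, 5.57 and 4.65 against 6.73, 7.10 and 6.28 (-1.33 ± 0.15, SE; adjusted p = 0.00608, limma). Here too the groups did not overlap. Counting all 5 stimulated arrays from 8 h on, Akr1c6, Akr1c14, Akr1c19 and Akr1c20 lay wholly below the controls of 8 to 24 h (4 of 7, against 7.81% of genes).

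Akr1c12 and Akr1c13 differed least from control among the called members. Akr1c13 read 10.03, 10.37 and 10.94 against 10.63, 10.86 and 11.40 (-0.52 ± 0.07, SE; 1.43-fold lower; adjusted p = 0.0119, limma), and Akr1c12 read 10.00, 10.29 and 10.66 against 10.51, 10.67 and 11.04 (-0.43 ± 0.07; 1.34-fold; adjusted p = 0.0204). In both, each stimulated array was below the control of its hour while the groups overlapped across hours. The shared probe set differed by -0.45 (adjusted p = 0.0298 over all probe sets). The 95% intervals of Akr1c12 (-0.60 to -0.25) and Akr1c13 (-0.69 to -0.34) lie apart from those of Akr1c14 (-2.99 to -2.53), Akr1c19 (-2.82 to -2.03), Akr1c20 (-2.60 to -1.66) and Akr1c6 (-1.70 to -0.96); a difference between genes was not tested. Akr1c18 read 6.22, 6.49 and 6.44 against 6.58, 6.39 and 7.12 and did not pass (-0.31; 95% interval -0.65 to 0.03; adjusted p = 0.239).

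**Figure D3:**
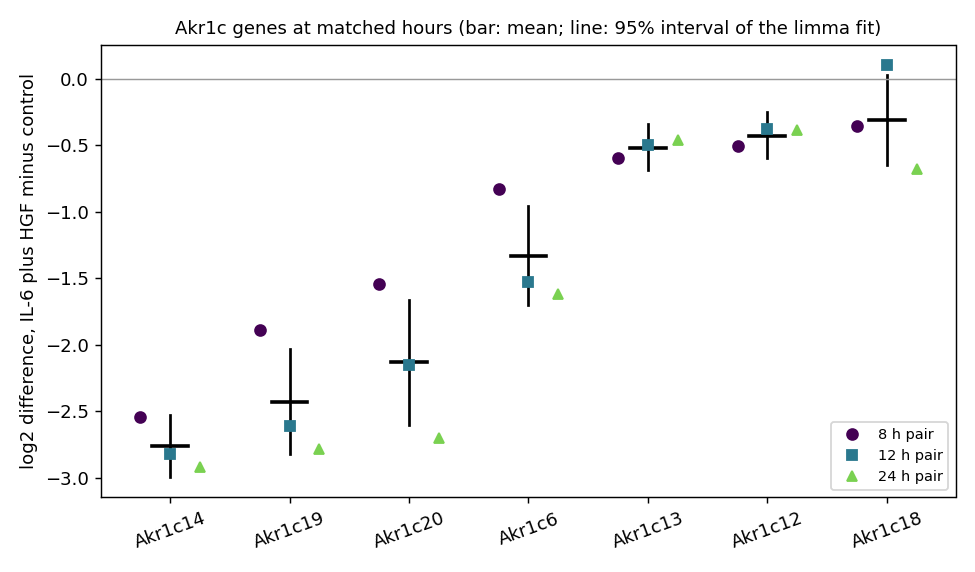
Log2 difference of IL-6 plus HGF from control (vertical) for 7 Akr1c genes, with a symbol for each pair of arrays at 8, 12 and 24 h, a bar for the mean and a line for the 95% interval of the limma fit. Akr1c14, Akr1c19 and Akr1c20 lie below -1 at all 3 hours, and only Akr1c18 has a pair above 0.

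Leaving out a pair ended some of these calls. Akr1c12 missed the threshold without the pair at 8 h (adjusted p = 0.0952), 12 h (0.0728) or 24 h (0.0636), and Akr1c13 without that at 8 h (0.0561). Without the hour block only Akr1c19 and Akr1c20 were called (2 of 7), and Akr1c14 missed at the same difference (adjusted p = 0.104, limma). Over all genes 142 were called in that setting, against 1637 with the block. On the arrays at matched hours Malat1 was higher by 1.56 (adjusted p = 0.00901, limma). Neat1, another nuclear long non-coding RNA, differed by 0.17 and was not called (adjusted p = 0.865, limma). In a fit of 17 arrays in 4 groups, without pairing by hour, Akr1c14 differed by -2.95, Akr1c19 by -2.15, Akr1c20 by -1.80, Akr1c13 by -0.74 and Akr1c12 by -0.64, all called, and Akr1c6 by -0.98 missed (adjusted p = 0.0519, limma). With Malat1 added to that fit as covariate, after the data had been seen, Akr1c14 differed by -2.19 (adjusted p = 0.0402, limma) and Akr1c19 by -1.66 (0.0279). Akr1c20 (-1.27, adjusted p = 0.0708), Akr1c6 (-0.74, 0.405), Akr1c13 (-0.51, 0.384) and Akr1c12 (-0.41, 0.41) missed. Over all genes 1608 were called in the fit of 17 arrays without Malat1 and 261 with it. The 6 h array with IL-6 plus HGF had the lowest Malat1 of all, 9.16, and its Akr1c14 stood at 7.45, below the 8.68 to 11.02 of controls at 4 to 24 h, where Malat1 was 9.35 to 9.81. On that array the members other than Akr1c18 were below their 4 h control, and Akr1c18 (6.27) was above it (6.23). There is no control at 6 h, and the part of Malat1 in the differences was not tested on this array.

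**Figure D4:**
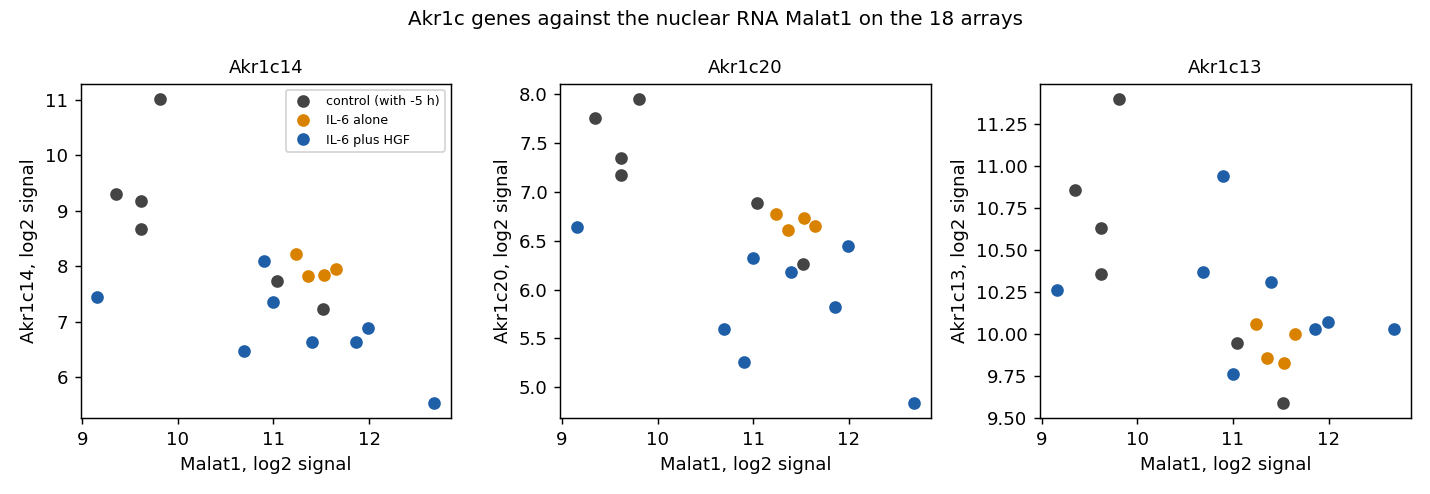
Log2 signal of Akr1c14, Akr1c20 and Akr1c13 (vertical) against that of the nuclear RNA Malat1 (horizontal) on 18 arrays, coloured by stimulus. Controls of 4 to 24 h sit at a Malat1 of 9.35 to 9.81, and the array with IL-6 plus HGF at 9.16 has an Akr1c14 of 7.45. The part of Malat1 was not tested on that array.

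Across the 18 arrays, which share hours and culture, the correlation with Malat1 was -0.69 for Akr1c14, -0.68 for Akr1c19, -0.66 for Akr1c20, -0.63 for Akr1c12, -0.61 for Akr1c13, -0.48 for Akr1c18 and -0.24 for Akr1c6. Within the 8 arrays of IL-6 plus HGF it ran from -0.63 for Akr1c14 to -0.30 for Akr1c13. Markers of other liver cells at the matched hours are set beside 6.46% of all genes lower and 2.53% higher. Of 18 Kupffer cell markers 2 were lower and 0 higher (mean level 7.13 to 7.30 stimulated, 7.24 to 7.49 in control), and of 12 liver endothelial markers 2 were lower (6.66 to 6.91 against 6.90 to 7.04). Of 12 stellate cell markers 1 was lower (6.47 to 6.55 against 6.56 to 6.70), and of 6 cholangiocyte markers 2 were higher (6.73 to 7.18 against 6.52 to 6.80). Of 10 hepatocyte markers 4 were lower (Tat, Asgr1, Asgr2 and Fah), with a mean level of 9.19 to 10.43 against 9.71 to 10.92. The difference was negative in all 10 of them, called or not, with a median of -0.4 against 0.01 over all genes. The part of these markers in the Akr1c differences was not tested.

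The difference between the effect of IL-6 plus HGF and that of IL-6 alone was a contrast over 17 arrays. It was negative in all 7 genes and called in 0 of 7 (0.0220% of all genes were called, 0.0110% higher and 0.0110% lower). An unadjusted p under 0.05 in limma was found for 5 members and for 1419 of all 18193 genes. The contrast was -2.94 ± 0.73 (SE) for Akr1c14 (adjusted p = 0.173, limma), -2.01 ± 0.51 for Akr1c19 (0.176) and -1.77 ± 0.50 for Akr1c20 (0.255). The difference from control after 4 h was therefore not shown to differ from the effect of the first hours, which is measured with wide intervals. A lower value than control is not always a fall of the signal. From IL-6 at 4 h to IL-6 plus HGF at 24 h it changed by 0.78 for Akr1c12, 0.94 for Akr1c13, 0.15 for Akr1c14 and 0.30 for Akr1c18. For Akr1c6, Akr1c19 and Akr1c20 it changed by -1.93, -1.48 and -1.39.

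The courses within IL-6 plus HGF parted the members. A slope on log2 of the hours over the 8 arrays from 5 to 24 h rose in 2 members, Akr1c12 and Akr1c13 (6.27% of genes rose), and fell in 2, Akr1c6 and Akr1c19 (4.84% of genes fell, and 11.1% were called in all). Akr1c6 fell from 6.14, 6.47 and 6.06 at 5, 6 and 7 h to 5.89, 5.87, 5.12 and 5.57 at 8, 9, 10 and 12 h and 4.65 at 24 h, with a slope of -0.76 ± 0.12 log2 per doubling (SE; adjusted p = 0.00289, limma). Between 5 and 24 h it dropped by 1.49, or 2.81-fold. Akr1c19 read 6.50, 7.17, 6.89, 6.68, 6.48, 5.54, 5.92 and 5.63 at these hours (slope -0.64 ± 0.18; adjusted p = 0.0496, just inside the threshold, and 0.0805 when adjusted over all probe sets). Akr1c20 read 6.32, 6.64, 6.45, 5.82, 6.18, 4.84, 5.60 and 5.26, and its slope of -0.63 ± 0.20 did not pass (adjusted p = 0.0768).

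Akr1c13 went from 9.76 at 5 h to 10.94 at 24 h (slope 0.44 ± 0.09, SE; adjusted p = 0.00876, limma), with the other 6 arrays between 10.03 and 10.37. Akr1c12 went from 9.73 to 10.66 (0.34 ± 0.08; adjusted p = 0.0252). Both thus rose with and without stimulus. Akr1c14 had no single direction: it fell from 7.36 and 7.45 at 5 and 6 h to 6.89, 6.64, 6.64 and 5.54 at 7, 8, 9 and 10 h and was at 6.48 at 12 h and 8.10 at 24 h. Its slope was 0.19 (adjusted p = 0.82), and -1.14 without the 24 h array (adjusted p = 0.115). Akr1c18 stayed between 6.13 and 6.49.

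Without the 24 h array 0 of 7 slopes were called, and without the 12 h array 2 of 7. Over all genes 244 were called without the 24 h array and 1762 without the 12 h array, against 2020 in the main fit. The 10 h array held the lowest value of Akr1c14 (5.54), Akr1c19 (5.54) and Akr1c20 (4.84) among all 18 arrays; it also had the highest Malat1, 12.68. Between 9 and 10 h these 3 genes dropped by 1.10, 0.93 and 1.34, and Akr1c6 by 0.75. Without that array Akr1c20 passed (slope -0.59; adjusted p = 0.00648).

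The slopes of IL-6 plus HGF and control were compared directly on log2 of the hours plus 1, over 13 arrays. The control slope spans 0 to 24 h and the stimulated slope only 5 to 24 h, so unlike spans of time are in part compared. In control Akr1c19 read 6.65, 7.87 and 8.57 at 0, 4 and 8 h, then 8.53 and 8.42 at 12 and 24 h. In 2 of 7 members, Akr1c19 and Akr1c20, the stimulated slope was lower (0.682% of genes were, 0.539% were higher and 1.22% were called in all). The difference was -1.12 ± 0.22 (SE) for Akr1c19 (adjusted p = 0.0275, limma) and -1.06 ± 0.22 for Akr1c20 (0.034). Adjusted over all probe sets, Akr1c19 passed (0.0487) and Akr1c20 missed (0.0596). For Akr1c6 it was -0.66 ± 0.16 and missed (adjusted p = 0.0613), as did Akr1c14 at -0.50 (0.697), which was -1.87 and called without both 24 h arrays (0.0303). For Akr1c12 it was 0.04 (95% interval -0.16 to 0.23) and for Akr1c13 0.11 (-0.10 to 0.32). These 2 calls were fragile: 0 of 7 remained without the control at 0 h, or without the stimulated array at 6, 7, 12 or 24 h, and 1 of 7 without the control at 8 or 12 h or the stimulated array at 5 or 8 h. Without the control at 0 h the difference was -0.91 for Akr1c19 and -1.05 for Akr1c20. Over all genes 222 were called in the main fit, and 23 without the control at 0 h. Without the stimulated array at 6, 7, 12 or 24 h the calls were 81, 121, 158 and 28. In the settings that left 1 of 7 they were 136 to 273. With Malat1 as covariate, an alternative added after the data had been seen, Akr1c20 differed by -0.92 (adjusted p = 0.0545) and Akr1c19 also missed (0.0514).

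Over the 18 arrays the members fell into sets by likeness, given as a description of arrays that share stimulus and hour. Akr1c12 and Akr1c13 correlated at r = 0.983 (rho 0.959; 0.969 without the 2 arrays farthest from the median). Akr1c19 and Akr1c20 correlated at 0.954 (rho 0.950; 0.961 without the 2 farthest), and at 0.933 within the 8 arrays of IL-6 plus HGF. Akr1c14 correlated with Akr1c20 at 0.843 and with Akr1c19 at 0.822, but within IL-6 plus HGF at only 0.397 and 0.254. Akr1c6 followed Akr1c19 (0.921) and Akr1c20 (0.897) within IL-6 plus HGF, and less over all arrays (0.599 and 0.689).

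Genes outside the set with the most similar course were sought by Pearson correlation over the 18 arrays. For Akr1c14 they were Agtr1a, an angiotensin II receptor (0.978), Mettl7a2 (0.971) and Mettl7a1 (0.960). For Akr1c19 they were Cbr1, a carbonyl reductase of the short-chain family (0.951), Ugt2b34, a glucuronosyltransferase (0.949), and Pgrmc1 (0.943). Ugt2b34 was also among the closest to Akr1c20 (0.958), with Hacl1, a peroxisomal lyase of fatty acid alpha-oxidation (0.961), and Rida (0.954). For Akr1c6 they were Ddt (0.982), Slc2a2, the hepatocyte glucose transporter (0.970), and Abhd6 (0.965). Akr1c12 and Akr1c13 had the same 3, H2az2, Cd1d1 and Aga, at 0.979 to 0.989. Akr1c18 came closest to Pdzk1ip1 (0.917), which fell to 0.575 without the 2 arrays farthest from its median.

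Of 8 other aldo-keto reductases measured, 1 was lower and 1 higher at the matched hours, against 6.46% of all genes lower and 2.53% higher. Their median difference was -0.15. Akr1e1, which adjoins the cluster, differed by -0.41 (adjusted p = 0.0257, limma) and rose in control (slope 0.18; adjusted p = 0.0432). Akr1b8, an aldose reductase-like enzyme, was higher by 0.50 (adjusted p = 0.0348). Akr1c21, next to Akr1c20 on the chromosome, differed by -0.21 (adjusted p = 0.225), at a level between 4.55 and 5.26 on all arrays. Net1, on the far side of Akr1c14, was higher by 0.38 (adjusted p = 0.0273). Akr1d1, the 5-beta-reductase that feeds 3-alpha-reduction in bile acid synthesis, differed by 0.15 (adjusted p = 0.267).

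Enzymes of neighbouring reactions were lower in part, and their counts stand beside 6.46% of all genes lower and 2.53% higher. Of 21 steroid dehydrogenases, reductases and hydroxylases 8 were lower and 0 higher, with a median of -0.21. They included Hsd17b13 (-1.82), Hsd17b2, which oxidises estradiol and testosterone (-1.48), the oxysterol hydroxylase gene Cyp7b1 (-1.14) and Hsd3b3 (-0.69). Of 18 genes of prostaglandin and carbonyl metabolism 7 were lower and 0 higher (median -0.18). Hpgd, which inactivates prostaglandins, was lower by 3.92-fold (-1.97 ± 0.09, SE; adjusted p = 0.00102, limma), the retinal reductase gene Dhrs3 differed by -1.40, and the carbonyl reductase genes Cbr3 and Cbr1 by -1.26 and -0.77.

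The next 2 lists at the matched hours also stand beside 6.46% of all genes lower and 2.53% higher. Of 24 genes known as targets or parts of the NRF2 pathway, which drives several aldo-keto reductases under oxidative stress, 13 were lower and 0 higher, with a median of -0.46. The glutathione transferase genes Gsta2 (-1.91), Gsta4 (-1.59) and Gstm3 (-1.11) and the cystine transporter gene Slc7a11 (-0.89) led these. Of 22 liver transcription factors and nuclear receptors 8 were lower and 0 higher (median -0.27), among them Nr1i2, a receptor for steroids and foreign compounds (-1.53), the bile acid receptor gene Nr1h4 (-1.26), the estrogen receptor gene Esr1 (-1.21) and Cebpa (-0.69). In control, 1 of 21 steroid genes rose and 2 fell, 3 of 18 prostaglandin and carbonyl genes rose, and 3 of 24 NRF2 genes rose, including Gsta4 (slope 0.32). Over all genes 2.14% rose and 1.47% fell in control. With IL-6 alone 0 genes of these lists were called in limma, against 0.0220% of all genes. An unadjusted p under 0.05 in limma was found for 1 steroid gene and 2 transcription factor genes, and for 656 of all 18193 genes. As a check of the stimulus, the level of Socs3, the feedback inhibitor induced by IL-6, was higher by 2.53 at the matched hours (adjusted p = 0.00102).

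**Figure D5:**
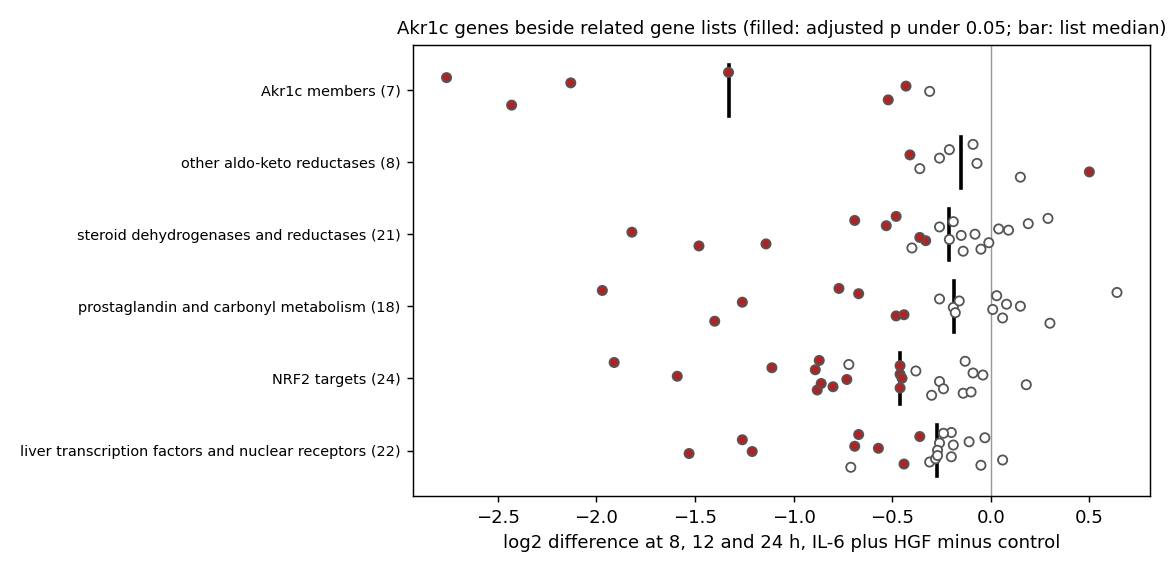
Log2 difference of IL-6 plus HGF from control at 8, 12 and 24 h (horizontal) for each measured gene of 6 lists (rows, number measured in brackets), filled where the adjusted p was under 0.05, with a bar at the list median. The Akr1c median is -1.33 and those of the other lists lie between -0.46 and -0.15.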

How the data were processed

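RNA was measured on 18 one-colour Affymetrix arrays, biotin-labelled per the labels' protocols. The values are log2 signals as the authors deposited them (2.095 to 15.049); how they were summarized and normalized is not given in the sources used here. Sorted, the arrays' values lay within 0.118 of their common mean and were used without further scaling. No column lacked a sample (0).

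Of 45101 probe sets, 34945 had a single symbol, 932 several and 9224 none; 64 were controls. A gene was represented by its probe set with the highest mean, which left 18193 genes, with no filter on dim ones. Fits used limma 3.58.1 in R 4.3.3 (lmFit, eBayes), p-values adjusted by Benjamini-Hochberg across all genes, and 0.05 as threshold; probe sets were fitted the same way over all non-control probe sets. The fit at matched hours left 2 residual degrees of freedom. The fits were tested on simulated data. Promoter windows were aligned globally (match 2, mismatch -1, gap opening -4, gap extension -0.5).

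The members and lists were chosen with earlier results of these data known. All 7 members were named, with up to 4 genes called per list (up to 2 given as values if none was) and, for each member, the 3 genes of highest correlation; Net1, Ucn3, Malat1 and Neat1 were looked at besides, after their values could be seen. The number of arrays limits the precision. Alternatives were quantile normalization, centring, a filter at the 40th percentile, the mean of all probe sets, an intensity trend with robust variance, other controls or hours, no hour block, Malat1 as covariate, and each array left out in turn.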

Additional observations from a re-analysis of the deposited data

Results flagged for a closer look

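In Akr1c19 and Akr1c20 the time slope differed between IL-6 plus HGF and control by a test of the difference itself, at -1.12 (adjusted p = 0.0275, limma) and -1.06 (0.034) log2 units per doubling of the hours plus 1. Both rose in control. With IL-6 plus HGF their slopes were close, at -0.64 (adjusted p = 0.0496) for Akr1c19 and -0.63 (0.0768) for Akr1c20, on either side of the threshold.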

How the results depend on the processing

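Of the members' differences at matched hours, 64 of 77 values under the alternatives kept their direction and side of the threshold, 13 missed the threshold and 0 reversed. The number called, 6, was 4 to 5 with a pair left out, 2 without the hour block, 5 in the fit of 17 arrays in 4 groups, and 2 in that same fit with Malat1 as covariate. Over all genes 1637 were called in the main fit, 585 to 843 with a pair left out and 142 without the hour block. In the fit of 17 arrays 1608 were called, and 261 with Malat1 as covariate. For the change after HGF no member was called under any alternative run. With 4 genes called in all in the main fit, this says nothing of stability. For IL-6 alone, with 0 members called under each alternative run, 17 of 161 values reversed. Many of the 161 could not reverse. Leaving out an IL-6 plus HGF array or a control at 8 to 24 h cannot move these differences. The filter and the robust variance do not move them either, so 17 of 161 is no measure of stability. Akr1c14 became 0.02 and Akr1c20 0.01 after quantile normalization, Akr1c20 0.02 with the mean of all probe sets, and Akr1c6 0.12 and Akr1c18 -0.24 with all 5 controls. That last setting moved Akr1c14 to -1.13, Akr1c19 to -0.89, Akr1c13 to -0.63, Akr1c20 to -0.61 and Akr1c12 to -0.55. Leaving out 1 array gave ranges of -0.37 to 0.15 for Akr1c6, -0.40 to 0.39 for Akr1c12, -0.42 to 0.34 for Akr1c13, -0.72 to 0.72 for Akr1c14, -0.75 to 0.47 for Akr1c19 and -0.48 to 0.43 for Akr1c20. Under IL-6 plus HGF 2020 genes had a slope called in the main fit, 244 without the 24 h array and 572 without the 10 and 24 h arrays. The 4 slopes called in members under IL-6 plus HGF became 0 to 5 with 1 array left out and 0 without the 24 h array. Without the 10 and 24 h arrays all 4 were lost, and the 1 call was Akr1c14 at -0.83 (adjusted p = 0.0337, limma), opposite in sign to its slope over all 8 arrays. Akr1c14 was -1.14 without the 24 h array and -1.14 to 0.43 with 1 array left out. The Akr1c19 slope missed with quantile normalization (0.0581), centring (0.0584), the mean of all probe sets (0.0552) and the hour itself (0.0804). Over all genes 222 slope differences were called in the main fit, 23 to 1046 with 1 array left out and 114 with Malat1 as covariate. The 2 slope differences called in members became 0 to 3 with 1 array left out, 1 (Akr1c19) with the mean of all probe sets, 1 (Akr1c19) with robust variance and a trend on intensity, and 0 with Malat1 as covariate. Without the 24 h arrays both were lost (0.0637 and 0.0818), and the 1 call was Akr1c14 at -1.87 (adjusted p = 0.0303, limma). In that setting Akr1c12 was -0.06 and Akr1c18 0, and with 1 array left out Akr1c12 spanned -0.06 to 0.08, Akr1c13 -0.03 to 0.18 and Akr1c18 -0.26 to 0. The 5 slopes called in control became 1 to 5 with 1 array left out. The Malat1 settings and the one without the 10 and 24 h arrays were chosen after seeing the data, and the cause of these changes was not tested. Scaling moved the median of all genes by at most 0.04. A single array per stimulus and hour limits every result.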
